A study of Mus musculus with 37 samples.

Results

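Hmgcs1, Sqle, Lss, Fdft1, Fdps, Idi1, Insig1 and Srebf2, genes of cholesterol synthesis and its control, were followed across 37 mouse colons on Affymetrix Mouse Gene 1.0 ST arrays. A transcript cluster was taken for a gene when the probe annotation gave it that symbol alone, and where a symbol had several such clusters the one with the highest mean over the 37 arrays was kept. All 8 genes were found this way, among 19938 genes in all. Of the 8, 6 code for enzymes of the pathway and 2 for its regulators. None codes for a protein of cholesterol uptake, so they are called cholesterol synthesis genes here.

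Cholesterol is built from acetyl-CoA through mevalonate, isopentenyl diphosphate, farnesyl diphosphate, squalene and lanosterol. SREBP2, the product of Srebf2, is a transcription factor held in the endoplasmic reticulum membrane when sterols are plentiful. INSIG1 takes part in holding it there. When membrane sterol falls, SREBP2 is cut free, enters the nucleus and raises transcription of the enzyme genes, of Insig1 and of Srebf2 itself. The intestinal epithelium, which is renewed continuously, both absorbs sterol and makes it.

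The treated mice had colitis from dextran sodium sulphate (DSS), a sulphated polysaccharide taken by mouth that injures the colonic epithelium. Knockout mice were of strain B6.129S4-Timp1tm1Pds/J, in which the gene of a secreted metalloproteinase inhibitor, Timp1, is disrupted in all tissues, and wild-type mice were C57BL/6J. Colons were snap frozen, and total RNA of each was labelled for 1 array. The 8 groups were knockout acute DSS (6 mice), knockout acute control (3), wild-type acute DSS (5), wild-type acute control (3), knockout chronic DSS (5), knockout chronic control (5), wild-type chronic DSS (5) and wild-type chronic control (5). The labels used here give no age, sex, dose or length of treatment, and they do not say whether the wild types were littermates of the knockouts. In RNA of a whole tissue, fewer cells of a type and less RNA per cell cannot be told apart.

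Values are log2 signals, so a difference of 1 is a factor of 2, and differences are given ± SE. A gene passed, or was called, when its limma p, adjusted over all 19938 genes, was under 0.05. The 8 genes were well detected, and their means over 37 arrays exceeded those of 80.6% to 96.2% of all genes. Epithelial Epcam, Cdh1 and Vil1 were high on every array (lowest values 10.34, 10.76 and 9.72), while the liver gene Alb stayed at 6.02 to 7.86. Timp1 was 7.10 to 8.68 in knockout acute DSS colons, against 9.47 to 12.19 in wild-type acute DSS colons. It was 6.83 to 7.30 in knockout chronic DSS colons, against 7.20 to 9.27 in wild-type chronic DSS colons, where the ranges met. In controls it did not separate the genotypes by the test (adjusted p = 0.608 acute and 0.996 chronic, limma). The acute controls still did not overlap, at 6.94 to 7.12 in knockouts and 7.56 to 7.76 in wild types, a layout of 25.8% of genes in either direction. Chronic controls overlapped, at 6.84 to 7.46 and 6.99 to 7.28.

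Animal numbers in the sample titles come in 4 styles, called animal series 1 to 4 here. In the acute phase, replicates 1 to 3 of the knockout DSS group are in series 1 with every wild type, while replicates 4 to 6 are in series 2 with every knockout control. In the chronic phase, series 3 has the wild types given DSS together with controls 1 to 3, and series 4 has the knockouts together with the wild-type controls 4 and 5. The labels do not say what the styles stand for. Wild-type acute DSS replicates 1 and 3 stood apart by a low mean over 10 epithelial markers, 11.43 and 10.62, against 12.11 to 12.13 in the other 3 mice of that group. Knockout acute control replicate 2 and knockout acute DSS replicate 4 carried Y-linked signal, and the rest did not.

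Promoters are printed for every one of the genes for which RefSeq gave an entry. The classical binding site of SREBP2, the sterol regulatory element, was first described in human promoters and usually stands beside CCAAT boxes and GC boxes. Of the 8 genes, 5 had an entry in the RefSeq promoter table (GRCm38.p6), namely Hmgcs1, Lss, Idi1, Insig1 and Srebf2. The stretches below are the 250 bases before the start used in that table, all on the + strand, from chr13:119690101-119690350 (Hmgcs1), chr15:82147019-82147268 (Srebf2), chr5:28071162-28071411 (Insig1), chr13:8885356-8885605 (Idi1) and chr10:76531355-76531604 (Lss). The Lss gene itself is annotated from chr10:76531565, so the end of its window lies inside the gene. Capitals mark CCAAT on either strand (ATTGG is its complement) and the sterol regulatory element TCACNCCAC or its shortened form TCACNCCA.
Hmgcs1: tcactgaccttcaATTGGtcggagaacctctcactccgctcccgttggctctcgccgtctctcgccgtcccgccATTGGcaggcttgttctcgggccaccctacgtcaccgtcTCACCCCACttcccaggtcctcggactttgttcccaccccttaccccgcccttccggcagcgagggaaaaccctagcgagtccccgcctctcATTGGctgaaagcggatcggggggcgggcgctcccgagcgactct
Srebf2: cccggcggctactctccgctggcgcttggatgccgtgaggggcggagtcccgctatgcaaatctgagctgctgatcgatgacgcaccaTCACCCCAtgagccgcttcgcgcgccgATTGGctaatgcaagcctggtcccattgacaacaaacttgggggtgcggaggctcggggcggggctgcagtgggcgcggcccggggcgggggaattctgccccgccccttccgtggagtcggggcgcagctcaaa
Insig1: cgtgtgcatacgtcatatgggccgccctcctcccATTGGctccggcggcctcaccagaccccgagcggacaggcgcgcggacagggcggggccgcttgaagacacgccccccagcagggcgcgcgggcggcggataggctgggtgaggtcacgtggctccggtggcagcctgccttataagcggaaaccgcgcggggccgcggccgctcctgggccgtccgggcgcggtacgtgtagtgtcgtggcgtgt
Idi1: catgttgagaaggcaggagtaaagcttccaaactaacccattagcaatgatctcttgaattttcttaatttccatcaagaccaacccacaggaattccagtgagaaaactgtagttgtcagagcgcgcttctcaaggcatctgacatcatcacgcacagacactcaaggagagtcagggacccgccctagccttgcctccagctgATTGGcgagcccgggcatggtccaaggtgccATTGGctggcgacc
Lss: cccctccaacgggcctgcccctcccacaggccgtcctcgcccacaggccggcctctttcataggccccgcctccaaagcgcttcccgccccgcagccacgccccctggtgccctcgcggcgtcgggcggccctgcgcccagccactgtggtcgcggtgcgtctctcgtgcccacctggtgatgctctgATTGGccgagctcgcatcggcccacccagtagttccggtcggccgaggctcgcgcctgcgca

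The element TCACNCCAC occurred on either strand in 1 of the 5 promoters, that of Hmgcs1, where it begins at position -137 relative to the start, and in 1.05% of 32851 mouse promoters of the same length. The form TCACNCCA, which lies within it and was shortened after the promoters had been read, occurred in Hmgcs1 and in Srebf2 (at -162) and in 3.67% of all promoters. Neither form was found in the windows of Insig1, Idi1 and Lss. CCAAT was present in 5 of 5, against 33.8% of all promoters. GGGCGG, the GC box, was also present in 5 of 5, against 32.7%. In Hmgcs1 the CCAAT boxes begin at -237, -176 and -45, and in Srebf2 the single one begins at -135. These are matches of letters and not measured binding.

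Under acute DSS, all 8 cholesterol synthesis genes had higher means in Timp1-knockout than in wild-type colons, but only Srebf2 passed the test over all mice, and within animal series 1 it was 5 of 8. Over all 11 mice the 8 differences ran from 0.25 for Fdft1 to 0.62 for Idi1, with a median of 0.41, against a median of 0.02 over all genes. Srebf2 passed the test (0.25 ± 0.08, adjusted p = 0.013, limma over all genes), and the other 7 did not (adjusted p 0.0598 to 0.441). At an unadjusted p under 0.05 the number was 6 of 8, against 40.6% of all genes. The comparison as a whole was broad, with 30.9% of all genes called and 15.8% called higher, so 1 of 8 is not a high share. Without wild-type replicates 1 and 3, those of low epithelial signal, 0 of 8 passed and 0 were at an unadjusted p under 0.05 (limma), with 7 of 8 differences still positive. In that fit 12.5% of all genes passed, and 5367 of 19938 were at an unadjusted p under 0.05. Leaving out 1 mouse gave 0 calls without wild-type replicate 1 (Srebf2 adjusted p = 0.0619), 3 without knockout replicate 4, 4 without wild-type replicate 4 or 5 and 6 without knockout replicate 6. Shares of all genes called in these fits are not given, so the counts show only how far the result hung on single mice.

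**Figure D1:**
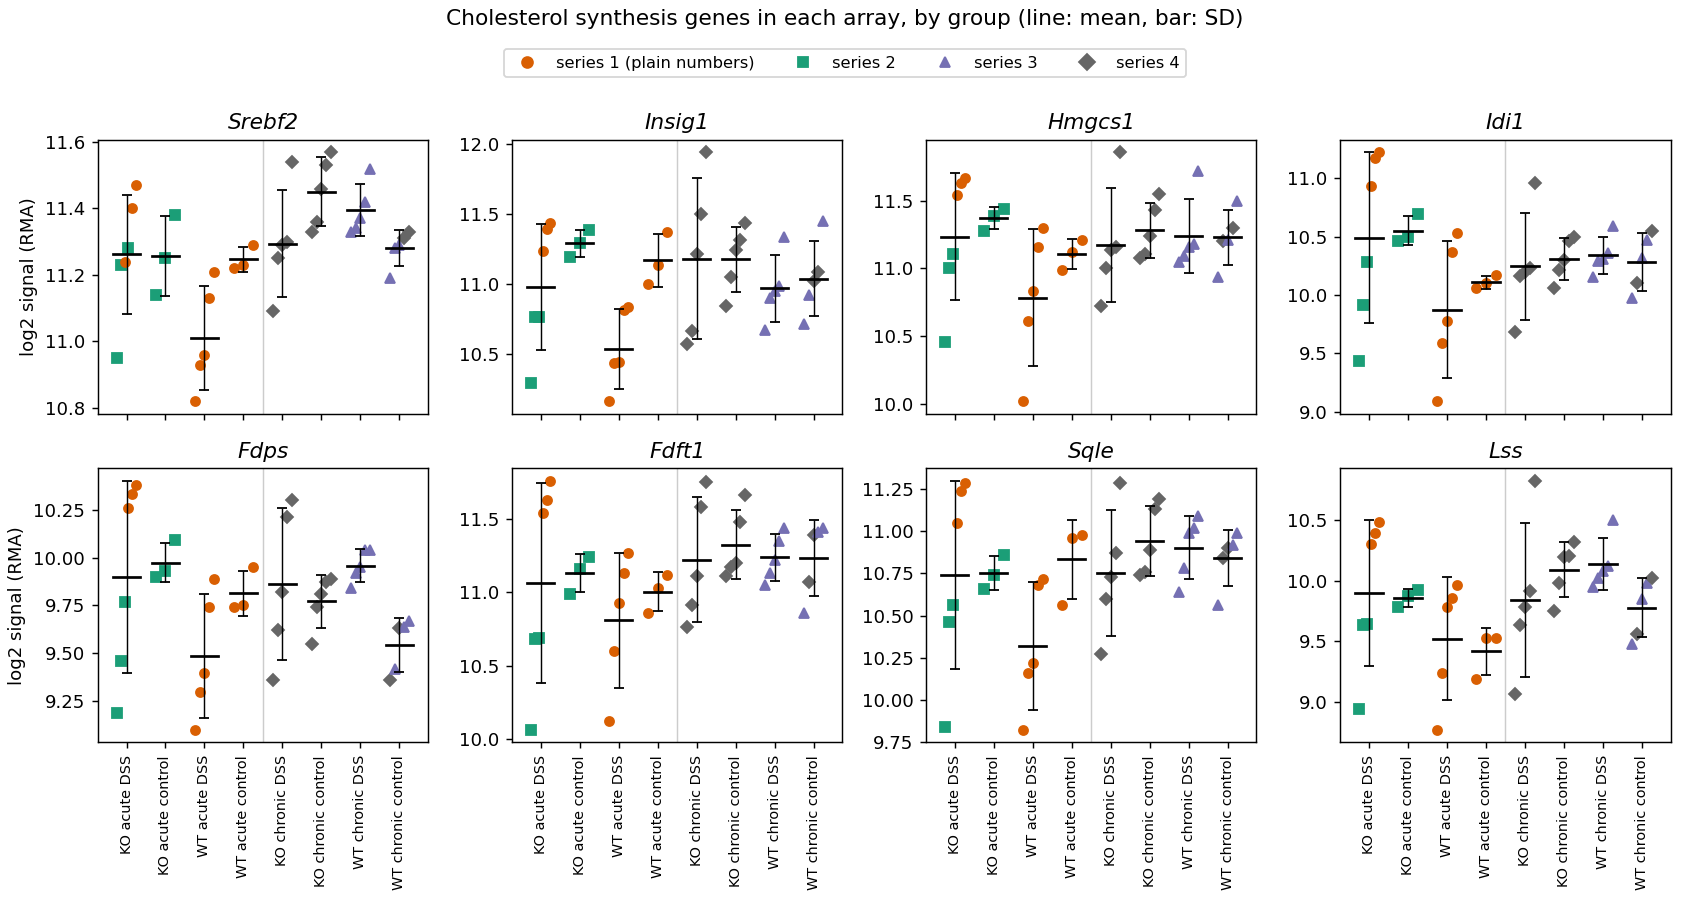
Log2 signal (RMA) of the 8 genes in each of 37 arrays, by group, with the group mean as a line and the SD as a bar. Marker shape and colour give the animal series. In the knockout acute DSS group the 3 circles of series 1 lie above the 3 squares of series 2 in 7 of the 8 panels, and in the Srebf2 panel they overlap.

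Srebf2, the gene of the transcription factor, was 11.24, 11.40 and 11.47 in knockout acute DSS replicates 1 to 3 and 11.23, 11.28 and 10.95 in replicates 4 to 6. The 5 wild-type acute DSS mice had 10.82, 10.96, 10.93, 11.13 and 11.21. Replicate 6 was the 1 knockout array inside the wild-type range. The difference was 0.16 without wild-type replicates 1 and 3 and no longer passed (adjusted p = 0.231).

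Insig1, the gene of the retention protein and itself an SREBP2 target, was 11.39, 11.23 and 11.43 in knockout acute DSS replicates 1 to 3 and 10.76, 10.76 and 10.29 in replicates 4 to 6. Wild-type acute DSS mice had 10.44, 10.43, 10.16, 10.81 and 10.83. The first 3 knockout mice lay above every wild-type mouse, and the last 3 lay among them. Over all 11 mice the difference was 0.44 ± 0.20 (adjusted p = 0.0921).

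Of the enzymes that carry the pathway from acetyl-CoA to farnesyl diphosphate, Idi1, which interconverts isopentenyl and dimethylallyl diphosphate, had the largest difference. It was 10.93, 11.22 and 11.17 in knockout acute DSS replicates 1 to 3 and 9.91, 10.28 and 9.43 in replicates 4 to 6, against 9.78, 9.59, 9.09, 10.37 and 10.53 in wild-type acute DSS mice. The range inside the knockout group, 1.79, exceeded the difference between the genotype means, 0.62 ± 0.25 (adjusted p = 0.0598). A second Idi1 cluster, not used for the counts, gave 0.63. Fdps, farnesyl diphosphate synthase, was 10.26, 10.33 and 10.38 in replicates 1 to 3 and 9.46, 9.77 and 9.19 in replicates 4 to 6, against 9.30, 9.40, 9.10, 9.89 and 9.74 in wild-type mice. Hmgcs1, the cytosolic HMG-CoA synthase, ran from 10.46 to 11.67 in knockout mice (median 11.32), against 10.02 to 11.30 in wild-type mice (median 10.83). Their differences were 0.41 ± 0.17 and 0.45 ± 0.20, and neither passed (adjusted p = 0.0696 and 0.0865).

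The enzymes that make squalene and close it into the sterol skeleton also had their highest knockout values in series 1. Fdft1, squalene synthase, ran from 10.06 to 11.76 in knockout acute DSS mice (median 11.12), against 10.12 to 11.27 in wild-type acute DSS mice (median 10.93). Sqle, squalene epoxidase, ran from 9.84 to 11.29 (median 10.80) in knockout mice, against 9.82 to 10.72 (median 10.22) in wild-type mice. Lss, lanosterol synthase, ran from 8.94 to 10.48 (median 9.97) in knockout mice, against 8.77 to 9.96 (median 9.78) in wild-type mice. In each case the lowest knockout array was replicate 6 and the highest was replicate 3. None of the 3 passed (differences 0.25, 0.42 and 0.38, adjusted p 0.101 to 0.441), and a second Fdft1 cluster gave 0.10.

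Series 1 is the only animal series with acute DSS mice of both genotypes, 3 knockouts and 5 wild types. Within it, every knockout array was above every wild-type array for all 8 genes, a layout shown by 15.0% of all genes in that direction and 29.1% in either. The differences ran from 0.36 ± 0.10 for Srebf2 to 1.23 ± 0.31 for Idi1, with a median of 0.83. Fdps, Idi1, Insig1, Sqle and Srebf2 passed (adjusted p 0.0163 to 0.049), against 15.6% of all genes called in either direction and 6.62% called higher. All 8 were at an unadjusted p under 0.05, against 33.5% of all genes. Hmgcs1, Fdft1 and Lss had differences of 0.83 to 0.87 with adjusted p of 0.0535 to 0.0671. Series entered as a covariate gave a median of 0.83 and 8 of 8 genes called, against 32.1% of all genes called and 16.9% called higher. All knockout acute controls were in series 2, so these 3 knockout mice had no untreated knockouts of their own series to be set against.

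The epithelial marker mean within series 1 was 12.06 to 12.25 in the 3 knockout mice, against 10.62 to 12.13 in the 5 wild types. With wild-type replicates 1 and 3 left out, a choice made after the values were seen, the 3 remaining wild types had epithelial means of 12.11 to 12.13, inside the knockout range. Other lists did not match in these 6 mice. Fibroblast markers averaged 10.10 to 11.14 in the knockouts, against 11.30 or more in the wild types, crypt proliferation genes 10.29 to 10.82 in the knockouts, against 9.78 to 10.06 in the wild types, and clock genes 8.98 to 9.04 in the knockouts, against 9.23 to 9.27 in the wild types. Over all 11 mice, 6 of 6 fibroblast and 5 of 5 endothelium markers were called lower in knockouts (medians -1.17 and -0.79), and the part of these lists was not tested. In that smaller comparison, 3 mice against 3, the 8 differences were 0.27 to 0.94 with a median of 0.59, and 7 of 8 genes passed (adjusted p 0.00884 to 0.0354), against 16.0% of all genes called and 7.61% called higher. Srebf2 did not (0.27 ± 0.10, adjusted p = 0.10). In the comparison of 3 mice with 5, the number called moved with single arrays. Without knockout replicate 1, 2 or 3 it was 0 of 8 by limma, with all 8 still at an unadjusted p under 0.05, while the share of all genes called was 5.49%, 4.14% and 2.38% in that order. Without wild-type replicate 1 or 2 it was 2, against 9.04% and 12.9% of all genes called. Without wild-type replicate 3 or 5 it was 7, against 14.3% and 12.3%.

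**Figure D2:**
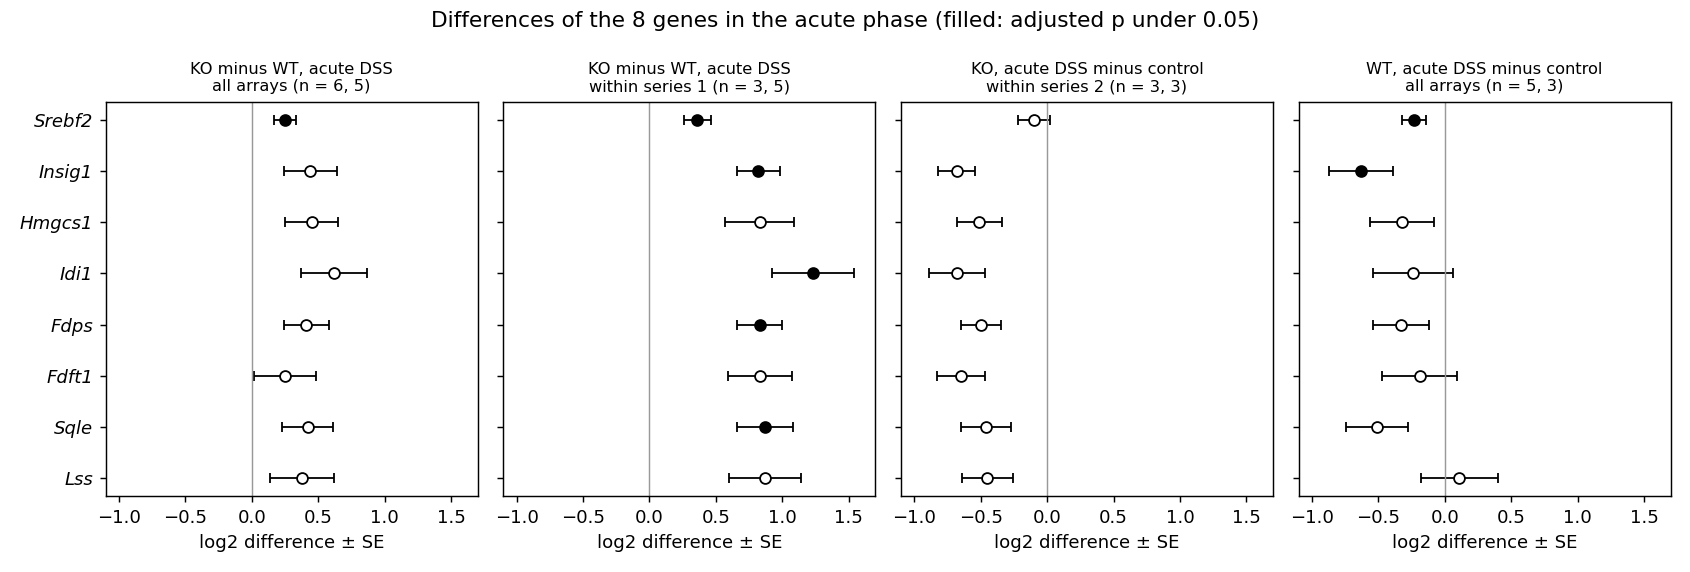
Log2 differences ± SE of the 8 genes from limma, for knockout minus wild type under acute DSS over all arrays and within series 1, for knockout acute DSS minus control within series 2, and for wild-type acute DSS minus control. Filled circles have an adjusted p under 0.05. Differences between genotypes lie right of 0, and those of knockout DSS against control within series 2 lie left of it.

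The knockout acute DSS group held mice at both ends of the acute range. The mean of the 8 genes was 11.04 to 11.20 in replicates 1 to 3 of series 1 and 9.90 to 10.51 in replicates 4 to 6 of series 2. For 7 of 8 genes the 2 sets of mice did not overlap, which held for 30.5% of all genes, 16.4% in this direction. Srebf2 was the exception (11.24 to 11.47 and 10.95 to 11.28). The 3 mice of series 1 were also above all 3 wild-type acute controls in 6 of 8 genes, Insig1 and Srebf2 excepted, as were 18.7% of all genes, with 41.3% separate in either direction. This split was described after the values were seen and carries no test. The epithelial marker mean was 12.17 in both sets. The mean of 5 crypt proliferation genes was 10.51 in series 1 and 9.87 in series 2, without overlap. Smooth muscle markers averaged 11.86 to 12.21 in series 1 and 12.26 to 12.59 in series 2, also without overlap. The part of either list in the difference was not tested.

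Among knockouts, acute DSS was compared with control over all mice and within series 2, the only series with knockout acute controls. Over all 9 mice, 0 of 8 genes passed (limma; 0 at an unadjusted p under 0.05, against 16.3% of all genes), in a comparison with 1.12% of all genes called, and the median difference was -0.06. Within series 2, which holds all 3 controls and DSS replicates 4 to 6, all 8 differences were negative, from -0.10 for Srebf2 to -0.68 for Insig1 and Idi1, with a median of -0.51. For 7 of the 8 genes every DSS array lay below every control array, as did 8.78% of all genes, with 15.3% separate in either direction. Insig1 was 10.76, 10.76 and 10.29 in the DSS mice, against 11.38, 11.29 and 11.19 in controls. Idi1 was 9.91, 10.28 and 9.43 in the DSS mice, against 10.46, 10.50 and 10.69 in controls. With 3 mice a group no gene of 19938 passed, and the 8 had adjusted p of 0.541 to 0.805, though 6 of 8 were at an unadjusted p under 0.05, as were 8.86% of all genes. The clock gene mean was 9.02 to 9.37 in these DSS mice, against 9.55 to 9.59 in the controls. Mature colonocyte markers averaged 11.74 to 12.31 in the DSS mice, against 12.55 to 12.69 in controls, and neutrophil markers 6.24 to 8.73 in the DSS mice, against 6.10 to 6.15 in controls. These 3 lists separated the groups as well, and their part was not tested.

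In wild-type colons the 2 regulators were lower under acute DSS. Insig1 was 10.44, 10.43, 10.16, 10.81 and 10.83 in wild-type acute DSS mice, against 11.00, 11.13 and 11.37 in wild-type acute controls. The groups did not overlap, and Insig1 fell by 0.63 (SE 0.24, adjusted p = 0.0354). Srebf2 was 10.82, 10.96, 10.93, 11.13 and 11.21 in DSS mice, against 11.23, 11.29 and 11.22 in controls, again with no overlap, and fell by 0.23 (SE 0.09, adjusted p = 0.0442). The other 6 genes, all enzymes, did not pass (adjusted p 0.0786 to 0.794), Sqle coming nearest at -0.51 ± 0.23. Lss alone had a positive difference, 0.11 ± 0.29.

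These 2 calls of 8 stand against 41.2% of all genes called, with 21.8% called lower, and the 2 genes without overlap against 39.1% of all genes in either direction and 21.4% below. At an unadjusted p under 0.05 the number was 3 of 8, against 49.0% of all genes. The median of the 8 differences was -0.28, against 0.01 over all genes. Epithelial markers moved in the same comparison, with 7 of 10 lower, none higher and group ranges of 10.62 to 12.13 under DSS and 12.17 to 12.22 in controls. Without wild-type replicates 1 and 3, Insig1 was at -0.48 (adjusted p = 0.182) and Srebf2 at -0.15 (adjusted p = 0.283), and 0 of 8 passed or reached an unadjusted p under 0.05 (limma). Of all genes 29.6% passed in that fit, and 8054 of 19938 were at an unadjusted p under 0.05. The part of epithelial content in the change was not tested. Both calls were lost without DSS replicate 1, 2 or 3 or control replicate 2 or 3, the Srebf2 call also without control replicate 1, and 3 genes were called without DSS replicate 4 or 5 (adjusted p 0.0254 to 0.156 for Insig1 and 0.0175 to 0.137 for Srebf2). These counts, without shares over all genes, show only how far the calls hung on single mice.

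Whether the DSS difference itself differed between the 2 genotypes was tested as an interaction. In the acute phase 0 of 8 passed, where 12.3% of all genes did (limma; 0 at an unadjusted p under 0.05, against 28.2%). Sqle had the largest estimate, 0.50 ± 0.33, and Srebf2 had 0.24 ± 0.13 (adjusted p = 0.326 and 0.228). With series as a covariate the median interaction of the 8 genes was -0.18, against 0.21 without it. In the fit over all 8 groups, untreated knockouts and wild types did not differ by the test either (0 of 8 passed, against 1.12% of all genes, and 0 were at an unadjusted p under 0.05, against 13.1%). Hmgcs1, Lss and Idi1 were higher in all 3 knockout acute controls than in all 3 wild-type acute controls, a layout of 25.8% of genes in either direction and 10.8% in this one. Idi1, for example, was 10.46, 10.50 and 10.69 in knockout controls, against 10.10, 10.06 and 10.17 in wild-type controls (0.44 ± 0.34, adjusted p = 0.643). That SE comes from 1 variance shared by all 8 groups. With only the acute control arrays Idi1 passed (0.44 ± 0.09, adjusted p = 0.0286, limma), in a fit that called 4.83% of all genes. These controls come from series 2 and series 1, so genotype and series cannot be told apart here. With series as a covariate, which places the knockout controls through the DSS mice of both series, Fdft1, Fdps and Idi1 were called higher (3 of 8, against 1.81% of all genes called and 0.888% called higher). Of 12 clock genes, 3 were called higher in the knockout controls and none lower, against 1.12% of all genes called. The 12 differences ran from -1.26 to 2.10, with 9 positive. Dbp had the largest, 2.10 ± 0.47 (adjusted p = 0.0195, limma).

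In chronic colitis none of the 8 genes passed the test over all mice in either genotype, and Fdps and Lss had the largest differences in wild types. In wild types 0 of 8 passed, against 14.4% of all genes (limma; 1 at an unadjusted p under 0.05, against 26.6%), and the median difference was 0.06. Fdps was the 1 gene with separate groups, at 10.04, 9.92, 10.04, 9.95 and 9.84 in wild-type chronic DSS mice, against 9.42, 9.64, 9.67, 9.63 and 9.36 in wild-type chronic controls. Groups were separate for 15.0% of all genes, 6.23% above. Its difference was 0.42 ± 0.18 (adjusted p = 0.126), and within series 3 it was 0.38 ± 0.08 with an adjusted p of 0.0127, in a fit that called 15.5% of all genes and 5.93% higher. With only the wild-type chronic arrays it was 0.42 ± 0.07 (adjusted p = 0.00274, limma), in a fit that called 20.2% of all genes. Lss was 10.13 ± 0.22 in wild-type chronic DSS mice and 9.78 ± 0.24 in wild-type chronic controls (SD, n = 5 each), a difference of 0.36 ± 0.25 (adjusted p = 0.403, limma) that was 0.37 ± 0.14 within series 3 (adjusted p = 0.116). In knockouts 0 of 8 passed, against 7.94% of all genes (0 at an unadjusted p under 0.05, against 23.3%), with a median of -0.10. Knockout chronic DSS replicate 1 had the highest Hmgcs1, Lss and Insig1 of all 37 arrays, 11.86, 10.82 and 11.94, while replicate 5 had the lowest values of its group for 7 of the 8 genes.

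Between genotypes in the chronic phase, 0 of 8 genes passed under DSS, against 2.48% of all genes (limma; 0 at an unadjusted p under 0.05, against 16.9%). The chronic DSS knockouts were all in series 4 and the chronic DSS wild types all in series 3. Genotype and series cannot be told apart from these mice alone. Among controls 0 of 8 passed, against 0.1% (1 at an unadjusted p under 0.05, Srebf2, 0.17 ± 0.08, against 9.46%). The chronic interaction called 0 of 8, against 0.421% of all genes (1 at an unadjusted p under 0.05, Srebf2, -0.27 ± 0.11, against 15.2%). The wild-type DSS effect was more positive in the chronic than in the acute phase for all 8 genes, by 0.20 to 0.74. Only Srebf2 passed (0.35 ± 0.12, adjusted p = 0.0477), against 17.0% of all genes called and 9.3% called higher, with 2 of 8 at an unadjusted p under 0.05, against 32.0%, and Fdps had the largest estimate (0.74 ± 0.27, adjusted p = 0.0588). The Srebf2 call was lost on leaving out 15 of the 18 mice in turn (adjusted p 0.0231 to 0.116), and held without chronic DSS replicate 4 or acute DSS replicate 4 or 5. Without the 2 acute DSS mice of low epithelial signal 6 of 8 differences were positive. Then 0 of 8 passed, against 7.48% of all genes (limma; 1 at an unadjusted p under 0.05, against 4775 of 19938 genes), Srebf2 being at 0.26 (adjusted p = 0.205). Epithelial markers ran the same way in this comparison, with 10 of 10 positive, 4 called and a median of 0.70, and fibroblast markers the other way, with 4 of 6 called lower and a median of -0.96. Their part was not tested. Chronic and acute controls did not differ in any of the 8 genes by the test, in wild types (7.02% of all genes called; 0 of 8 at an unadjusted p under 0.05, against 22.6%) or in knockouts (4.48% called; 1 of 8, against 21.7%). Each phase had its own animal series, so phase and series cannot be told apart.

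**Figure D3:**
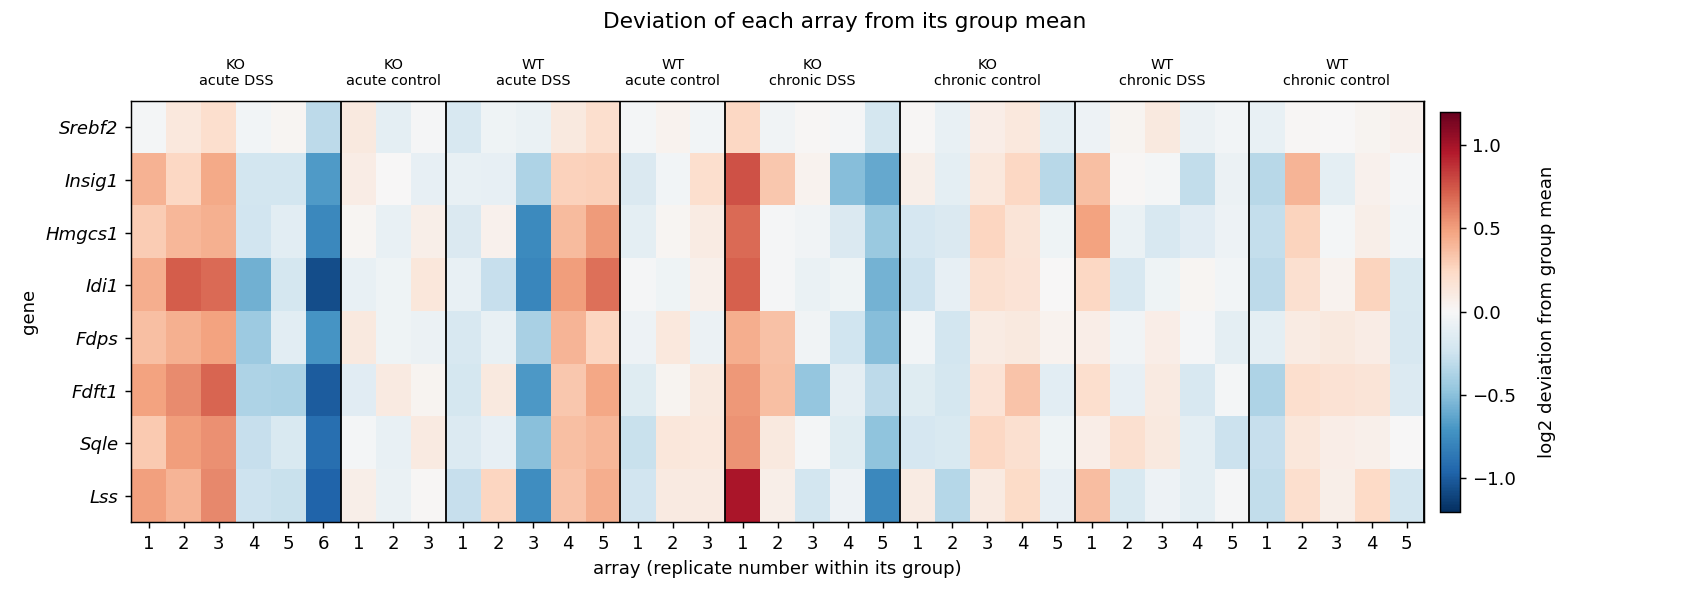
Deviation of each array from the mean of its own group, in log2 units, for the 8 genes (down the map) and 37 arrays (columns, by group and replicate number). Red is above and blue below the group mean. Whole columns share a colour, and in 19 of the 37 arrays all 8 genes lie on the same side of their group means.

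The 8 genes varied together from mouse to mouse. In 19 of 37 arrays all 8 were on the same side of their group means, 9 times above and 10 times below. The deviations of any 2 of the genes correlated across the 37 arrays with a Pearson r of 0.69 to 0.93 (median 0.88) and a Spearman rho of 0.56 to 0.92 (median 0.82) over the 28 pairs. Hmgcs1 and Lss had the highest r, 0.93, and Fdft1 and Srebf2 the lowest, 0.69. Permutation p for r, from 100000 permutations within groups, were 1e-05, the smallest they can give, to 0.00024, and the adjusted values reached 0.00024 for r and 0.00287 for rho. Without the 2 arrays farthest from the median r was 0.58 to 0.91, and with means taken within group and animal series it was 0.64 to 0.92. All 8 genes share the same arrays and normalization, so the pairs are not independent of each other.

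Variation between mice was large for these genes. The SD within groups was 0.30 to 0.43 for 7 of the 8, above that of 88.6% to 95.5% of all genes, whose median SD was 0.14. Srebf2, at 0.13, was an ordinary gene in this respect, with 40.5% of genes below it. For Idi1 the SD was 0.73 in knockout acute DSS mice (n = 6), against 0.13 in knockout acute controls (n = 3). The DSS group spans 2 series and the controls 1, and within series the SD of the DSS mice was 0.15 in series 1 and 0.43 in series 2 (n = 3 each). Among the 6 knockout acute DSS mice the range was 1.13 to 1.79 for the 6 enzymes and Insig1, and 0.51 for Srebf2.

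Against marker lists the deviations were looser. The 3 lists shown here were picked after correlations with all lists had been seen. With the mean of 10 epithelial markers, r was 0.33 to 0.57 for the 8 genes (adjusted permutation p 0.0237 to 0.115) and rho 0.18 to 0.39 (adjusted p 0.194 to 0.391), and without the 2 farthest arrays r was 0.22 to 0.39. With means taken within group and series, r was 0.36 to 0.66. With the 5 crypt proliferation genes r was 0.19 to 0.45 (adjusted p 0.137 to 0.376) and rho 0.19 to 0.45 (adjusted p 0.0829 to 0.331), with r of 0.15 to 0.37 without the 2 farthest arrays and -0.15 to 0.18 within group and series. With the 12 clock genes r was -0.09 to 0.11 (adjusted p = 0.954 for all 8) and rho -0.12 to 0.15 (adjusted p = 0.864), with r of -0.02 to 0.25 without the 2 farthest arrays and 0.00 to 0.29 within group and series. Single clock genes moved in opposite directions, from -1.26 to 2.10 between knockout and wild-type acute controls. Their mean, here and above, can cancel such changes, so a low r with it does not show independence from the clock. Each of these families held 8 relations.

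The genes most like the 8 across the 37 arrays, by Pearson r with their mean signal, were Cyp51 (r = 0.96), Msmo1 (0.95), Nsdhl (0.94), Aacs (0.94) and Mvd (0.91). Cyp51 is lanosterol demethylase, Msmo1 and Nsdhl act in the removal of the next methyl groups, Mvd makes isopentenyl diphosphate, and Aacs activates acetoacetate for lipid synthesis. Taken as deviations from group means, their r was 0.95 to 0.97. Over 19930 other genes the median r of deviations was 0.03 and the 99th percentile 0.71. Of 13 other sterol enzymes measured, out of 16 listed, 9 ranked among the 100 genes most like the 8, with a median r of deviations of 0.87. Ggps1, which turns farnesyl diphosphate into geranylgeranyl diphosphate outside the sterol branch, had r = -0.52. These correlations are descriptions over 37 shared arrays.

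**Figure D4:**
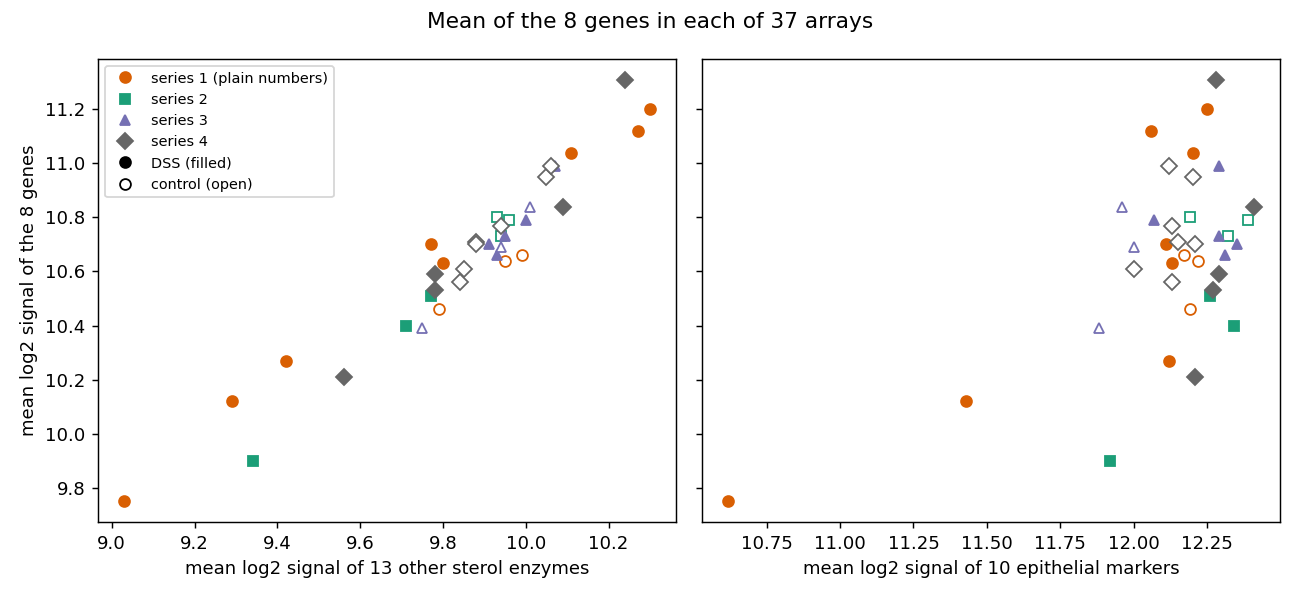
Mean log2 signal of the 8 genes in each of 37 arrays against the mean of 13 other sterol enzymes (left) and of 10 epithelial markers (right). Shape and colour give the animal series, with DSS filled and control open. On the left the points of the 4 series rise together. On the right the 2 arrays of lowest epithelial signal, 10.62 and 11.43, have low means of the 8 genes, 9.75 and 10.12, and the remaining arrays spread from 9.90 to 11.31 over a narrow epithelial range.

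Other enzymes of the sterol pathway were followed as a list of 13. Under acute DSS in wild types 6 of 13 fell and none rose, with a median of -0.41. Tm7sf2, a sterol reductase, fell by 1.08 (adjusted p = 8.7e-05), Dhcr7, which makes cholesterol from its last precursor, by 0.99 (adjusted p = 0.000252), and Ebp, the sterol isomerase, by 0.95 (adjusted p = 1.18e-06). Between knockouts and wild types under acute DSS 6 of 13 were higher and none lower, with a median of 0.51, and Tm7sf2 (0.80), Dhcr7 (0.71) and Nsdhl (0.58) had the largest differences among those that passed. The mean of the 13 was 10.11 to 10.30 in the knockout acute DSS mice of series 1 and 9.34 to 9.77 in those of series 2. Wild-type acute DSS mice had 9.03 to 9.80. The part of animal series in the differences of this list was not tested. Ebp (0.84) and Tm7sf2 (0.82) also passed the acute interaction (adjusted p = 0.0037 and 0.0498, limma). They were the only 2 of the 13 to do so, against 12.3% of all genes called, so this is not a high share. The acute DSS counts stand against 21.8% of all genes called lower in wild types and 15.8% called higher in knockouts. They come with the same epithelial markers, of which 5 of 10 were higher in knockouts and none lower.

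Sterol sensing, uptake and export genes did not move as 1 block. Of 7 sensing genes measured, Erlin1 and Erlin2, parts of a complex that takes part in sterol-dependent protein degradation, fell in wild-type acute DSS colons (by 0.53 and 0.54) and were higher in knockouts than wild types under DSS (by 0.28 and 0.41). These 2 of 7 stand against 21.8% of all genes called lower and 15.8% called higher, so they are not a high share. Of 9 uptake and transport genes, 3 rose and 2 fell in wild-type acute DSS colons, against 41.2% of all genes called in either direction. Stard4, a carrier of cholesterol between membranes, fell by 0.80 and Npc2, a lysosomal cholesterol carrier, fell by 0.64, while Lrp8, a lipoprotein receptor, rose by 0.69. Stard4 was higher by 0.80 in knockouts than in wild types under DSS, whereas Scarb1, the high-density lipoprotein receptor, and Lipa, the lysosomal acid lipase, were lower, with differences of -0.73 and -0.66. Epithelial markers were lower in 7 of 10 in wild-type acute DSS colons and higher in 5 of 10 in knockouts, and their part was not tested.

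Of 8 efflux and storage genes, Ch25h, which hydroxylates cholesterol, and Abca1, a cholesterol exporter, rose by 1.64 and 1.57 in wild-type acute DSS colons, and Abcg5, which returns sterol to the gut lumen, fell by 1.87. All 3 had the opposite sign between knockouts and wild types under DSS, at -1.27, -1.15 and 1.09. The 2 comparisons share the wild-type DSS mice. Neutrophil markers were higher in 6 of 6 in wild-type acute DSS colons and lower in 5 of 6 in knockouts against wild types. Macrophage markers were higher in 3 of 5 and lower in 3 of 5, in the same order. Mature colonocyte markers were lower in 6 of 7 and higher in 3 of 7. The part of these cells in the efflux genes was not tested.

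Fatty acid synthesis, the branch governed mainly by SREBP1, had 5 of 11 measured genes lower and 1 higher in wild-type acute DSS colons, and 5 higher and none lower in knockouts against wild types under DSS. The shares over all genes were 21.8% lower in wild-type acute DSS colons and 15.8% higher in knockouts, and they apply to the isoprenoid genes as well. Epithelial markers moved the same way in both comparisons, 7 of 10 lower and 5 of 10 higher, and their part was not tested. Acss2, which makes acetyl-CoA from acetate, fell by 1.89 and was higher by 1.03 in knockouts. Fads2, a desaturase, fell by 1.55 and was higher by 0.96. Scd2, another desaturase, fell by 1.18 and was higher by 0.91. Of 6 genes that use isoprenoids, 5 fell in wild-type acute DSS colons, Pdss2 by 0.53, Coq2 by 0.44 and Fntb by 0.41, and 3 were higher in knockouts under DSS. Pdss2 and Coq2 act in coenzyme Q synthesis and Fntb in protein farnesylation. In the chronic phase only 1 of the 13 other sterol enzymes passed in wild types, Pmvk (0.44 ± 0.14, adjusted p = 0.0281, limma), against 14.4% of all genes. In knockouts 0 of 13 passed, against 7.94% of all genes (limma, 2 at an unadjusted p under 0.05, against 23.3%).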

How the data were processed

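Total RNA of 37 snap-frozen mouse colons was hybridised to Affymetrix Mouse Gene 1.0 ST arrays, 1 per mouse. The deposited values are log2 signals that the authors normalized with RMA, per the submitters' processing notes. The log base was read as 2 from the range of the values. Of 35511 transcript clusters, 21789 carried 1 symbol, and 1 cluster a symbol left 19938 genes. Groups came from the sample titles. Mice with separate numbers were taken as separate animals, and p-values measure the spread between these mice.

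All genes were fitted with limma 3.58.1 (R 4.3.3) on 8 group means, with Benjamini-Hochberg adjustment over all genes. The 8 groups share 1 variance per gene, so the SE of a comparison also reflects the spread in the other groups. The fit was tested on simulated data. Permutation tests used Python 3.11.15 and scipy 1.17.1. The number of arrays limits precision. The 8 genes and the lists were chosen with earlier results of these data known. Counts of non-overlapping groups, the split of knockout acute DSS mice and the marker lists in correlations were chosen after the values were seen. Named genes were the 8, up to 3 genes of each list with the largest passing difference in the wild-type acute DSS or acute DSS genotype comparison, the 5 genes most like the 8, and Timp1. Genes named outside that rule (Dbp, Ggps1, Pmvk, tissue markers) were chosen after their values were seen.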

Additional observations from a re-analysis of the deposited data

Results flagged for a closer look

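Hmgcs1 in wild-type chronic DSS replicate 1 was 11.72, while the other 4 mice of the group had 11.05 to 11.18. Its distance from them was large for a group of 5, a mark that chance gives in about 1 of 20 groups, and it was the 1 such case among 48 sets of a gene and a group. The wild-type DSS effect on Srebf2 was more positive in the chronic phase (0.12) than in the acute phase (-0.23), by 0.35 (adjusted p = 0.0477, limma), a difference tested between the phases. Each phase had its own animal series, and the cause was not tested.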

How the results depend on the processing

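Leaving out wild-type acute DSS replicates 1 and 3 was chosen after seeing the data. Members called in wild-type acute DSS against control were 2 (41.2% of all genes). It was 0 with cyclic loess (38.9%), array weights (48.9%) or without those mice (29.6%), and 1 with only the compared arrays (28.8%). Between genotypes under acute DSS 1 was called (30.9% of all genes). It was 2 without the dimmest genes (41.2%) or with array weights (25.5%), and 3 without the Y-linked arrays (28.5%). Series as a covariate gave 8 (32.1%) and series 1 alone 5 (15.6%), with the same mice and a median of 0.83 in both. Only the compared arrays (11.2%) and leaving out the 2 mice (12.5%) gave 0. The knockout acute DSS median was -0.51 with the covariate and within series 2, which rest on the same mice. Over all 9 mice 2 of 8 differences were positive, and 7 of 8 were with array weights or without DSS replicate 6. There the median ran from -0.18 to 0.10 when each mouse was left out. Among acute controls the covariate gave 3 calls (1.81% of all genes) and a median of 1.01. Only the compared arrays gave 1, Idi1 (adjusted p = 0.0286, limma, with 4.83% of all genes called). The acute interaction median was -0.18 with the covariate. Array weights gave 1 call in wild-type chronic DSS, knockout chronic DSS and chronic controls and 2 in the chronic interaction, with 24.8%, 18.5%, 6.76% and 9.19% of all genes called there, against 14.4%, 7.94%, 0.1% and 0.421% without weights. Wild-type chronic DSS had 1, Fdps, with only its arrays (20.2% of all genes) or within series 3 (15.5%). The wild-type phase difference had 2 calls without the dimmest genes (3324 of 13292 genes called), with the covariate (17.8%) or only the compared arrays (15.6%). It had 0 with a trended and robust prior (16.7%), cyclic loess (15.6%), without the Y-linked arrays (16.5%) or without the 2 mice (7.48%). Signs turned for Fdft1 (0.07) and Idi1 (0.15) with array weights in wild-type acute DSS, for both without the 2 mice (0.11 and 0.05), and for Fdft1 between genotypes without them (-0.05). Leaving out each mouse gave 0 to 3 calls in wild-type acute DSS, 0 to 6 between genotypes under acute DSS, 0 to 7 within series 1, 0 to 2 for the phase difference and 0 elsewhere, and Lss in wild-type acute DSS ran from -0.01 to 0.30. The cause of these shifts was not tested. No paired analysis was possible because the replicate numbers name different mice in each group and pair none.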
